A study of Oryza sativa with 18 samples.

Results

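Callus of 2 transgenic lines of the same rice cultivar was compared directly: pOE, in which BOC1 is driven by a Ubiquitin promoter, and pCPL, in which BOC1 is driven by its own promoter. The members are the annotated genes found in the deposited tables of both lines with a mean above 1 FPKM (fragments per kilobase of gene, scaled to the size of the library) in either line. There were 20862 such genes among the 36844 joined by gene identifier, and entries without an annotated identifier were left out. Both lines carry BOC1 sequence of YIL25, an introgression line with wild rice (Oryza rufipogon) segments, in Teqing, an indica cultivar whose callus browns readily. The study found no coding difference between YIL25 and Teqing. It proposes that a transposable element in the YIL25 promoter, a Tourist MITE, raises BOC1 expression. Of the inserts, only that of pCPL contains this promoter. The pCPL insert is a genomic fragment with the promoter, the coding region and the 3′ flank in pCAMBIA1300. The study's methods give the pOE insert, in pCAMBIA1301, as the open reading frame. Its forward primer lies in the 5′ untranslated region, before the start codon. The callus was grown from mature seeds in the dark on medium with 2,4-D and was sampled 21 days after subculture. Each line has 3 libraries and shares a deposited table with Teqing callus, also with 3 libraries. This is Teqing2 for pCPL and Teqing3 for pOE, called the line's own Teqing here. Whether a line and its own Teqing were cultured or sequenced together was not stated. The study calls the 3 libraries biological replicates. How many transformation events stand behind a line was not stated, so p-values measure the spread between these libraries only.

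BOC1 belongs to the SRO proteins, a plant family named after Arabidopsis RCD1 whose members combine a PARP-like domain with an RST domain that binds transcription factors. The family is known for its part in responses to oxidative and abiotic stress. Browning of callus is the darkening that follows when phenols are oxidized to quinones, and stressed or dying callus browns most. The lines differ in which stretch of BOC1 was put back, and the primers that set the ends of each insert show this. Capitals mark the added restriction site, and all 4 are written 5′ to 3′ as designed by the study.
Ubi:BOC1-OE forward, KpnI: cggGGTACCacttgatcccgatcgccatt
Ubi:BOC1-OE reverse, SpeI: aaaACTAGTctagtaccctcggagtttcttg
BOC1-CPL forward, SacI: aaaGAGCTCaaaactcccgtaaccgtagg
BOC1-CPL reverse, KpnI: ggGGTACCaaaaacggggaaaagacaac

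The tables were normalized separately by the authors, so the line and the table cannot be told apart in a direct comparison. FPKM of the 6 libraries were therefore put on 1 scale by the median of ratios, with factors from 0.9995 to 1.012, and the median log2 difference of pOE over pCPL over all tested genes was -0.0063. Recovered reads over genes were 16620557 to 17448446 in pCPL and 20178993 to 21893028 in pOE, and the median coefficient of variation between libraries of a line was 6.22% in pCPL and 6.89% in pOE. On log2(FPKM + 1) group means of the values as deposited, 15.1% of the tested genes differed at least 2-fold between pOE and pCPL and 15.6% between the 2 Teqing groups. Teqing3 and pCPL, which come from different tables, differed at least 2-fold in 4.16% of the genes, the lowest share of the 6 pairs of groups, and the other 3 pairs ranged from 13.1% to 15.5%. Because the 2 control groups stand this far apart, levels in Teqing2 and Teqing3, or Teqing3 over Teqing2, are given beside the lines for the genes described below. A gene is called Teqing-stable where the means of the Teqing groups were within 1.5-fold on log2(FPKM + 1), as they were for 63.8% of the tested genes.

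The inserted gene itself separated the lines. BOC1 (LOC_Os03g12820, chromosome 3, 6895178 to 6898348 of IRGSP-1.0, the authors' coordinates) was at 102, 100. and 103 FPKM in pCPL callus and at 577, 576 and 584 FPKM in pOE callus. It was at 58.02, 57.5 and 57.4 FPKM in Teqing2 and at 64.7, 68.4 and 63.3 FPKM in Teqing3. Every pOE library was above every pCPL library, and every pCPL library was above all 6 Teqing libraries. The ratio of the means was 5.704, a log2 difference of 2.51 ± 0.025 (SE, limma on log2(FPKM + 1), adjusted p = 3.48e-12). The gene was Teqing-stable (log2 difference of 0.18), and the difference of the responses, pOE over Teqing3 minus pCPL over Teqing2, was 2.32 (adjusted p = 1.77e-14). Reads of the resident BOC1 and of the insert are summed in 1 value.

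**Figure D1:**
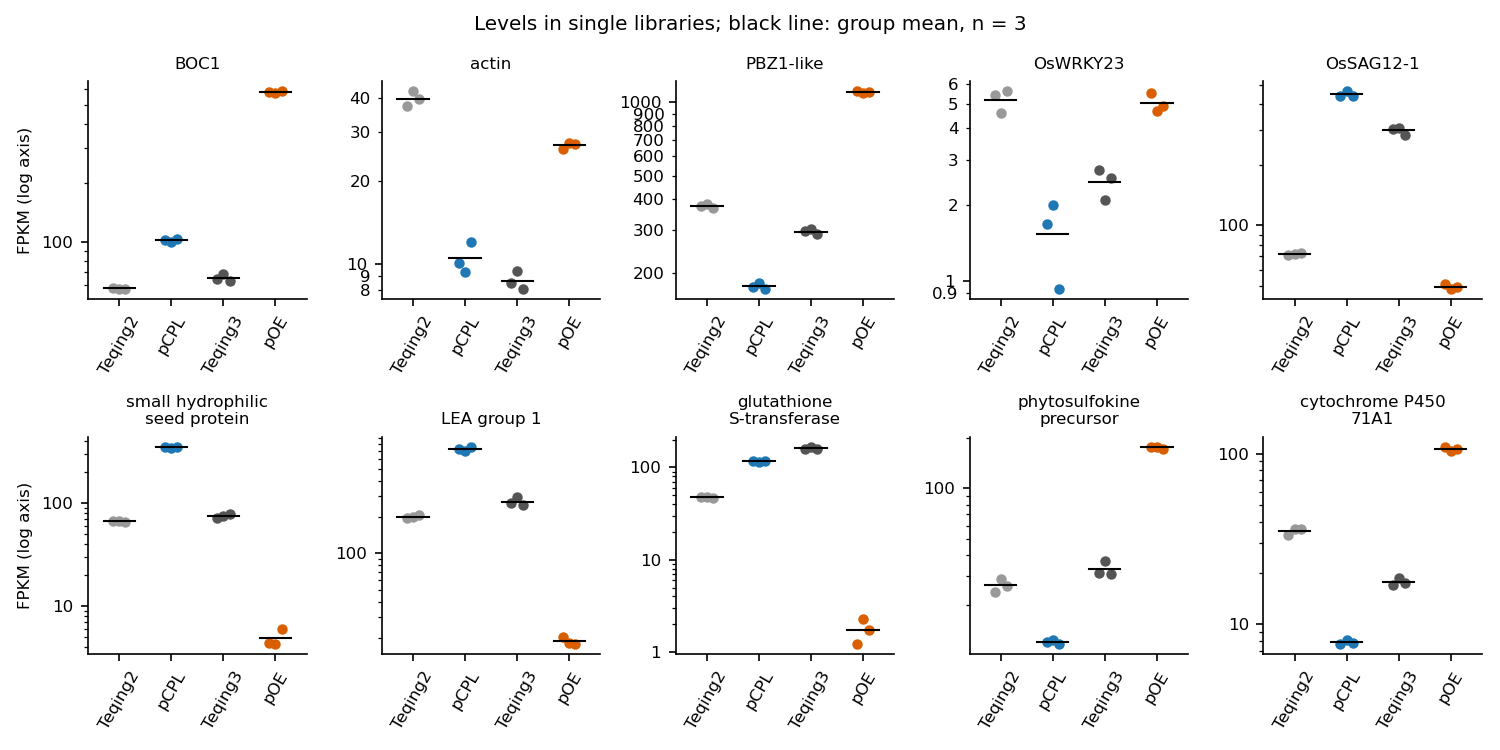
FPKM (log axes, which differ between panels) of 10 named genes in the single libraries of Teqing2, pCPL, Teqing3 and pOE, with points for libraries and a black line for the mean of 3. The pOE and pCPL libraries do not overlap in any of the panels, as for all called genes. Over all tested genes this held for 36.4% with pOE higher and 39.1% with pOE lower. Actin and OsSAG12-1 also differ widely between Teqing2 and Teqing3.

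Actin (LOC_Os03g50885, chromosome 3, 29074003 to 29075858), a cytoskeletal gene often used as a reference in transcript measurements, also differed. It was at 10.1, 9.33 and 11.96 FPKM in pCPL and 26.2, 27.5 and 27.3 FPKM in pOE, 2.58 times as high (log2 difference 1.31, adjusted p = 4.9e-07). The control groups stood further apart than the lines: actin was at 37.4, 42.2 and 39.5 FPKM in Teqing2 and 8.53, 9.38 and 8.105 FPKM in Teqing3. The libraries of pCPL and Teqing3 overlapped for this gene, and Teqing2 was highest.

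Over all tested genes, 1497 were called higher in pOE (7.18% of those tested) and 1562 were called lower (7.49%), at a log2 difference of 1 and an adjusted p under 0.001 (limma, Benjamini-Hochberg). Differences of any size at an adjusted p under 0.05 were found for 7426 genes higher (35.6%) and 7637 lower (36.6%), so a call says mainly that the difference was at least 2-fold. Libraries of the lines did not overlap for 7591 genes with pOE higher (36.4%) and 8163 with pOE lower (39.1%), and all called genes were among them. The median log2 difference was 1.37 among genes called higher and -1.40 among genes called lower. At least 8-fold differences on this scale were more frequent downwards, with 99 genes lower and 54 genes higher in pOE.

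**Figure D2:**
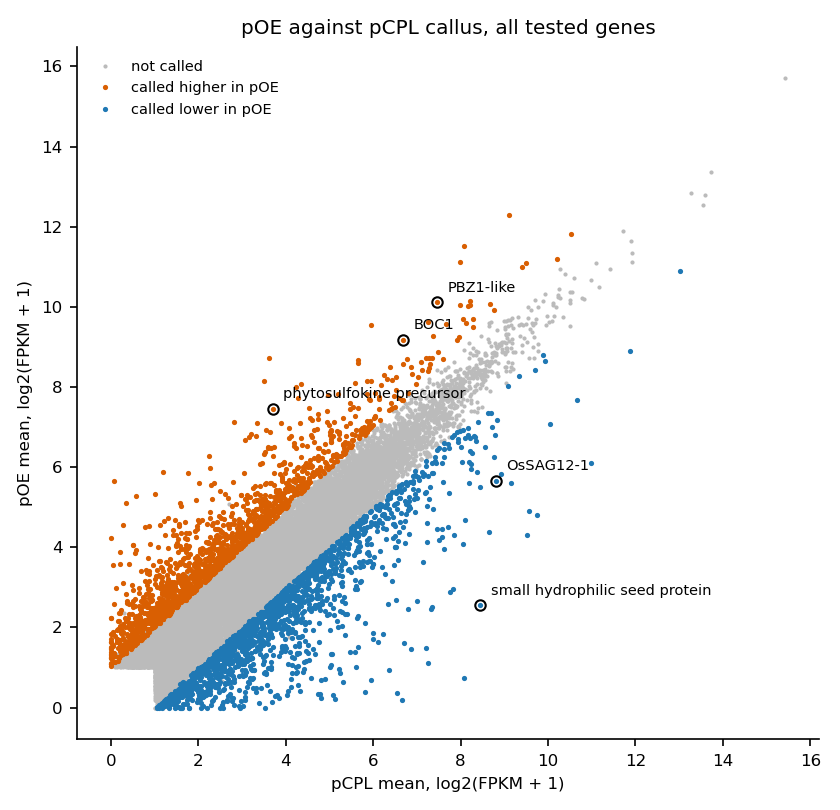
Mean log2(FPKM + 1) of every tested gene in pCPL (horizontal axis) and pOE (vertical axis), n = 3 libraries per line. Orange points are the 1497 genes called higher in pOE, blue points the 1562 called lower, and open circles mark 5 named genes.

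The called genes were also compared between each line and its own Teqing. Such a call depends on the level of that Teqing group too, so it does not show by itself which line had moved. Among genes called lower in pOE, 1112 were also called lower in pOE than in Teqing3, 764 were called higher in pCPL than in Teqing2, and 569 were both. Among genes called higher in pOE, 887 were called higher in pOE than in Teqing3, 355 were called lower in pCPL than in Teqing2, and 230 were both. Neither was so for 255 of the genes called lower and 485 of those called higher. Over all tested genes, by group means with no p threshold, 1843 were at least 2-fold lower in pOE than in Teqing3 and 1397 higher (15.5% together). Likewise, 1613 were at least 2-fold higher in pCPL than in Teqing2 and 1130 lower (13.1% together). The difference of the responses called 3046 genes higher (14.6% of those tested) and 3710 lower (17.8%), or 32.4% in either direction. It had the same direction and was called for 1080 of the 1497 genes higher in pOE and 1361 of the 1562 lower, and it was called in the opposite direction for 4 and 0 of them. This second comparison is, apart from the rescaling, the direct difference less Teqing3 over Teqing2, on the same line libraries. It is therefore not independent of the direct comparison, and its values are given beside the direct ones.

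The gene lists used here come from annotation words in the supplementary descriptions of the study, which cover only its UUD genes (up in YIL25 and pCPL against Teqing, down in pOE) and DDU genes (down, down, up). The study chose these genes on these libraries, so their direction is not independent evidence. Of 403 UUD genes tested, 223 were called lower in pOE than in pCPL and 3 higher, with a median log2 difference of -1.06. Of 284 DDU genes tested, 201 were called higher and 0 lower, with a median of 1.21. Over all tested genes the shares were 7.18% higher and 7.49% lower, and the median was -0.0063. The Teqing groups were apart for the same genes, with medians of Teqing3 over Teqing2 of 1.29 in the UUD set and -1.20 in the DDU set, and 43 UUD and 25 DDU genes were Teqing-stable.

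Seed maturation genes were among those with a strong fall in pOE. All 4 tested genes annotated as late embryogenesis abundant (LEA), dehydrin or small hydrophilic seed proteins were called lower in pOE, as is fixed in part by their choice from the UUD set, and all 4 were Teqing-stable and called in the difference of the responses. These proteins are known to accumulate in maturing seeds and in tissue that loses water. Over all tested genes 7.49% were called lower in pOE. The small hydrophilic seed protein gene (LOC_Os05g28210, chromosome 5, 16518577 to 16519493) was at 352, 339 and 352 FPKM in pCPL and at 4.36, 4.29 and 6.04 FPKM in pOE. It was at 66.98, 67.4 and 65.97 FPKM in Teqing2 and 72.2, 74.4 and 78.5 FPKM in Teqing3. pCPL was thus above and pOE below all 6 Teqing libraries, with a ratio of pCPL over pOE of 71.03 (log2 difference -5.88 ± 0.0955, adjusted p = 5.25e-11).

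LEA group 1 (LOC_Os04g49980, chromosome 4, 29811954 to 29812662) was at 738, 707 and 767 FPKM in pCPL, and at 20.3, 18.0 and 17.8 FPKM in pOE. The level in pCPL was 39.5 times that in pOE (log2 difference -5.22, adjusted p = 3.48e-12), with 196, 200.5 and 209 FPKM in Teqing2 and 262, 291 and 250.4 FPKM in Teqing3. LEA group 3 (LOC_Os01g50910, chromosome 1, 29233040 to 29234256) was at 747, 748 and 776 FPKM in pCPL and 31.7, 27.1 and 28.3 FPKM in pOE. The dehydrin (LOC_Os11g26780, chromosome 11, 15336192 to 15337158) was at 36.4, 38.3 and 34.3 FPKM in pCPL and 0.747, 1.23 and 0.887 FPKM in pOE. Both fell, with log2 differences of -4.64 and -4.25 (adjusted p = 5.38e-12 and 6.71e-10), with Teqing3 over Teqing2 at 0.02 and 0.04. The summed FPKM of the 4 genes was 1874, 1833 and 1928 in the pCPL libraries, 573, 576 and 589 in Teqing2, 639, 695 and 642 in Teqing3 and 57.1, 50.6 and 53.04 in pOE. The order was the same for each of the 4 genes: pCPL highest, the Teqing groups between, and pOE lowest.

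Beside the dehydrin on chromosome 11, LOC_Os11g26790 (chromosome 11, 15342877 to 15343671) had the largest fall of all. It was at 285, 257 and 267 FPKM in pCPL and 0.920, 0.315 and 0.789 FPKM in pOE, a log2 difference of -7.34 ± 0.123 (adjusted p = 6.47e-11). The Teqing groups were between, at 48.7, 43.2 and 47.3 FPKM in Teqing2 and 97.8, 110.3 and 100.1 FPKM in Teqing3, and were not Teqing-stable. LOC_Os11g26570 (chromosome 11, 15223376 to 15224746), on the same chromosome, went from 60.1, 62.3 and 60.9 FPKM in pCPL to 0.981, 0.558 and 0.302 FPKM in pOE (log2 difference -5.27), with 14.8 ± 1.45 FPKM in Teqing2 and 38.9 ± 1.702 in Teqing3. Neither gene has a description in the sources used here. Whether near-identical copies share their reads was not tested.

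LOC_Os01g06630 (chromosome 1, 3124369 to 3125331) had the largest fall among the Teqing-stable genes. It was at 95.7, 101 and 102 FPKM in pCPL and 0.0547, 0.262 and 0.101 FPKM in pOE, against 19.99, 19.1 and 20.6 FPKM in Teqing2 and 21.02, 22.6 and 20.3 FPKM in Teqing3. The log2 difference was -6.45 ± 0.0835 (adjusted p = 1.44e-11). LOC_Os06g21910 (chromosome 6, 12665605 to 12666203) followed, at 96.01, 92.01 and 88.4 FPKM in pCPL and 0.357, 0.513 and 0 FPKM in pOE (log2 difference -6.18), with 16.4 ± 1.35 FPKM in Teqing2 and 14.4 ± 0.821 in Teqing3. For both, pCPL was above and pOE below every Teqing library. Os04g0362375 and LOC_Os01g54520, which were not Teqing-stable, fell with log2 differences of -5.70 and -5.43, beside 0.66 and 1.18 for Teqing3 over Teqing2.

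LOC_Os08g36900 (chromosome 8, 23335167 to 23337076) differed in that it was abundant in 3 of the 4 groups. It was at 1997, 2027 and 2006 FPKM in pCPL, 2778, 2778 and 2823 FPKM in Teqing2 and 1989, 2023 and 1898 FPKM in Teqing3, and at 69.8, 66.04 and 66.6 FPKM in pOE. The log2 difference was -4.86 ± 0.0277 (adjusted p = 2.17e-13). Here pOE alone stood apart. The opposite case was LOC_Os08g42690 (chromosome 8, 26982655 to 26986691), at 32.7, 33.8 and 34.5 FPKM in pCPL, at 0.03601, 0.414 and 0.0332 FPKM in pOE and at 0 in all 6 Teqing libraries, so that pCPL alone stood apart (log2 difference -4.90, adjusted p = 1.17e-09). Os01g0702500 (chromosome 1, 29123535 to 29124590) and LOC_Os03g51350 (chromosome 3, 29386204 to 29388055) were also Teqing-stable and lower in pOE, with log2 differences of -4.86 and -5.42.

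Enzymes that remove reactive compounds were among the genes that fell. Glutathione S-transferases couple glutathione to reactive molecules, and LOC_Os10g38470 (chromosome 10, 20551209 to 20552361) was at 117, 114 and 116 FPKM in pCPL and 1.22, 2.26 and 1.73 FPKM in pOE (ratio of pCPL over pOE 66.6, log2 difference -5.42, adjusted p = 3.03e-10). In the Teqing libraries it was at 47.7, 47.6 and 46.6 FPKM (Teqing2) and 159, 168 and 157 FPKM (Teqing3). Only pOE was low for this gene, and pCPL lay between the Teqing groups. Os10g0528300 (chromosome 10, 20556396 to 20557613), which starts just after it and has no description, fell with it, from 151, 148 and 157 FPKM in pCPL to 1.03, 1.13 and 1.34 FPKM in pOE, with 60.2 ± 6.91 FPKM in Teqing2 and 116 ± 4.43 in Teqing3. A second glutathione S-transferase (LOC_Os01g55830) had means of 12.2 ± 0.661 FPKM in pCPL and 3.45 ± 0.839 FPKM in pOE (SD, n = 3, as for every mean that follows), and Teqing3 over Teqing2 was 2.79 on the log2 scale.

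Aldehyde dehydrogenases oxidize reactive aldehydes to acids. The aldehyde dehydrogenase LOC_Os02g49720 (chromosome 2, 30392547 to 30396729) was at 840.2, 887 and 831 FPKM in pCPL and 26.3, 28.8 and 26.03 FPKM in pOE (log2 difference -4.91 ± 0.043, adjusted p = 2.89e-12). Its Teqing means were 339.8 ± 24.4 FPKM in Teqing2 and 836 ± 28.3 FPKM in Teqing3, so the pCPL level lay close to that of Teqing3. An aldo/keto reductase (LOC_Os04g27060), of a family that reduces carbonyl groups, was at 329 ± 8.87 FPKM in pCPL and 57.7 ± 1.59 FPKM in pOE, and at 89.9 ± 2.83 FPKM in Teqing2 and 189 ± 11.04 in Teqing3. Of the glyoxalase family, known for detoxifying methylglyoxal, LOC_Os08g09250 was at 18.4 ± 0.906 FPKM in pCPL and 5.35 ± 0.325 FPKM in pOE, while its Teqing means, 2.79 ± 0.0428 FPKM in Teqing2 and 20.5 ± 0.612 in Teqing3, stood further apart than those of the lines. LOC_Os07g46360, also of this family, had 276 recovered reads over the 3 pCPL libraries and none in pOE. Against a floor of 3 reads over the group and the reads over genes of each line, it was at least 114-fold lower in pOE, with a low level of 0.407 ± 0.308 FPKM in Teqing2 and 0.736 ± 0.409 FPKM in Teqing3.

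OsSAG12-1 (LOC_Os01g67980, chromosome 1, 39501378 to 39502910), a senescence-associated cysteine proteinase described by the study as a negative regulator of senescence, was lower in pOE. It was at 439, 465 and 443 FPKM in pCPL and 50.9, 48.3 and 49.6 FPKM in pOE, a ratio of 9.05 in favour of pCPL (log2 difference -3.14 ± 0.0338, adjusted p = 4.28e-12). The control groups were at 71.1, 72.1 and 72.5 FPKM in Teqing2 and 303, 305 and 283 FPKM in Teqing3. The gene was not Teqing-stable, and pCPL and Teqing3 formed its high groups, pOE and Teqing2 its low ones. The alpha-amylases, which break down starch, had the same high and low groups: LOC_Os02g52710 was at 422 ± 5.501 FPKM in pCPL, 127 ± 5.28 in pOE, 139.5 ± 4.27 in Teqing2 and 1115 ± 43.2 in Teqing3. Its neighbour LOC_Os02g52700 was at 77.9 ± 1.48 FPKM in pCPL and 21.02 ± 1.35 FPKM in pOE, and at 35.3 ± 2.14 FPKM in Teqing2 and 188 ± 4.71 in Teqing3. As the 2 amylase genes lie side by side and carry the same annotation, reads may have been divided between them in a way not tested here.

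Genes of growth and cell walls on the lower side included CESA2 (LOC_Os03g59340), a cellulose synthase, at 25.2 ± 0.536 FPKM in pCPL and 6.01 ± 0.139 in pOE. It was at 5.19 ± 0.317 FPKM in Teqing2 and 24.8 ± 0.416 in Teqing3, so the control groups stood as far apart as the lines, with pCPL close to Teqing3 and pOE to Teqing2. CSLA6 (Os02g0744600), a mannan synthase of the same list, was higher in pOE, at 17.1 ± 0.494 FPKM against 5.89 ± 0.395 in pCPL, and it was at 30.5 ± 4.64 FPKM in Teqing2 and 7.44 ± 0.504 in Teqing3. An expansin (LOC_Os02g51040), of the proteins that loosen cell walls, was at 58.5 ± 6.47 FPKM in pCPL and 13.04 ± 0.848 in pOE, and at 15.6 ± 2.18 FPKM in Teqing2 and 32.9 ± 1.36 in Teqing3. An auxin response factor (LOC_Os11g32110), a transcription factor of auxin signalling, was Teqing-stable and fell from 87.7 ± 0.953 FPKM in pCPL to 22.9 ± 1.03 in pOE (log2 difference -1.88, adjusted p = 5.05e-10), with 39.5 ± 1.67 FPKM in Teqing2 and 50.8 ± 1.103 in Teqing3. OsGH3.3 (LOC_Os01g12160), annotated as an enzyme that couples auxin to amino acids, was at 8.09 ± 0.362 FPKM in pCPL and 2.54 ± 0.323 in pOE. Its Teqing means, 3.21 ± 0.308 FPKM in Teqing2 and 14.7 ± 0.844 in Teqing3, again stood further apart.

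Among regulators, the homeobox and NAC lists hold 3 genes each, all from the UUD set, so that lower calls in pOE repeat how they were chosen. The homeobox leucine zipper gene LOC_Os02g43330 (chromosome 2, 26143311 to 26144729) was at 16.2, 14.5 and 15.2 FPKM in pCPL and 0.1397, 0.201 and 0.419 FPKM in pOE (log2 difference -3.69, adjusted p = 3.85e-09), with 3.81 ± 0.455 FPKM in Teqing2 and 7.21 ± 0.263 FPKM in Teqing3. The NAC gene LOC_Os01g66490 was at 3.38 ± 0.757 FPKM in pCPL and 0.559 ± 0.0712 in pOE, and at 1.51 ± 0.195 FPKM in Teqing2 and 3.38 ± 0.407 in Teqing3. The WRKY genes went opposite ways: WRKY89 (LOC_Os08g17400) was at 28.2 ± 1.21 FPKM in pCPL and 10.02 ± 1.40 in pOE, beside 9.86 ± 0.233 FPKM in Teqing2 and 32.4 ± 0.756 in Teqing3, and OsWRKY23 is given below. Of 5 protein phosphatase 2C genes tested, 3 were called lower and 0 higher, LOC_Os01g62760 with a log2 difference of -1.98 (0.63 for Teqing3 over Teqing2), and the 3 are from the UUD set. Of the protein kinases, 9 of 16 from the UUD set were called lower and 8 of 9 from the DDU set higher, with the largest differences in LOC_Os04g33500 (-2.24) and LOC_Os12g30180 (2.56). Teqing3 over Teqing2 was 1.86 and 0.33 for these. Over all tested genes 7.18% were called higher and 7.49% lower. The direction of the phosphatase and kinase calls follows how the sets were chosen.

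On the other side, several genes annotated as defence proteins or oxidases were called higher in pOE. The PBZ1-like gene (LOC_Os12g36850, chromosome 12, 22591681 to 22593505) encodes a pathogenesis-related protein of the Bet v I family. It was at 175, 182 and 172 FPKM in pCPL and 1109.9, 1096 and 1106 FPKM in pOE, and at 377, 384 and 369 FPKM in Teqing2 and 296, 301 and 289 FPKM in Teqing3. pOE was above and pCPL below all 6 Teqing libraries, at a ratio of 6.27 (log2 difference 2.66 ± 0.0266, adjusted p = 3.48e-12). The gene was Teqing-stable, and the difference of the responses was 2.99 (adjusted p = 7.87e-16).

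On chromosome 12, 4 of its neighbours were also called higher in pOE. LOC_Os12g36830, 10.8 kb before it, was at 548, 531 and 583 FPKM in pCPL and 5048, 5084 and 5033 FPKM in pOE. LOC_Os12g36860 was at 15.7, 17.5 and 20.5 FPKM in pCPL and 261, 251 and 258 FPKM in pOE, and LOC_Os12g36880 at 264, 262 and 285 and 2968, 2908 and 2957 FPKM. The log2 differences of these 3 genes were 3.20, 3.79 and 3.46, beside 0.37, 0.42 and 1.02 for Teqing3 over Teqing2. LOC_Os12g36840, between the first of them and the PBZ1-like gene, had a log2 difference of 1.54. By contrast, LOC_Os12g36870 lay inside the same stretch at a low level in both lines, with a log2 difference of 0.59, and LOC_Os12g36810 and LOC_Os12g36890 at the outer sides differed by 0.21 and 0.20. The neighbours have no description in the sources used here, and reads shared between similar copies were not tested.

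**Figure D3:**
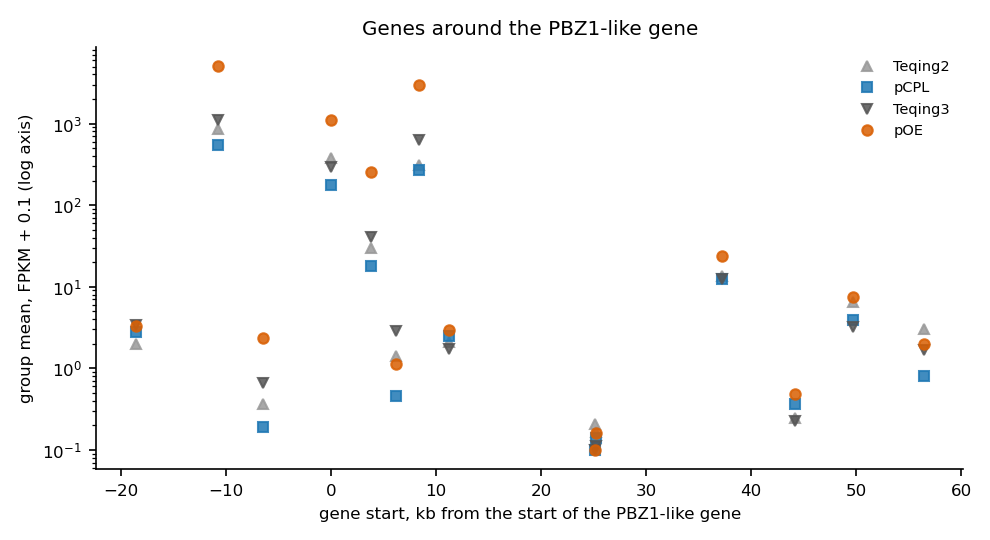
Group means (FPKM + 0.1, log axis, n = 3 libraries) of the genes around the PBZ1-like gene against the distance of their starts from its start in kb. In the stretch from LOC_Os12g36830 to LOC_Os12g36880 the pOE mean is the highest of the 4 groups for each gene but LOC_Os12g36870, and the genes outside it lie closer together.

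A thaumatin gene (LOC_Os12g43440), of another class of pathogenesis-related proteins, was also Teqing-stable and higher in pOE, at 16.8, 13.2 and 13.9 FPKM in pCPL and 67.2, 72.6 and 67.4 FPKM in pOE (log2 difference 2.18, adjusted p = 1.36e-08), with 37.7 ± 2.23 FPKM in Teqing2 and 28.1 ± 1.81 in Teqing3. Both glucan endo-1,3-beta-glucosidases of the same list went the other way: LOC_Os02g53200 was at 64.97 ± 4.21 FPKM in pCPL and 23.4 ± 0.373 in pOE, and at 28.6 ± 2.08 FPKM in Teqing2 and 50.7 ± 3.69 in Teqing3. Of this list the 2 DDU genes were called higher and the 2 UUD genes lower, which repeats how they were chosen. Over all tested genes 7.18% were called higher and 7.49% lower.

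Laccases are copper enzymes that oxidize phenols. The laccase LOC_Os12g15680 (chromosome 12, 8960777 to 8964016) was low in pCPL, at 0.423, 0.509 and 0.346 FPKM, and at 15.1, 17.5 and 14.5 FPKM in pOE, with 2.18 ± 0.4399 FPKM in Teqing2 and 1.28 ± 0.0417 FPKM in Teqing3. The log2 difference was 3.55 ± 0.106 (adjusted p = 3.18e-09), and the gene was Teqing-stable. A peroxidase precursor (LOC_Os04g59260), of the enzymes that oxidize phenols with hydrogen peroxide, was at 56.05, 59.7 and 55.8 FPKM in pCPL and 229.5, 231 and 222 FPKM in pOE (ratio 3.98, adjusted p = 9.41e-11). Its Teqing means, 156 ± 4.42 FPKM in Teqing2 and 108 ± 3.64 FPKM in Teqing3, lay between the lines.

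Cytochrome P450 enzymes are monooxygenases that modify many small molecules. Of the 9 tested, the 6 from the DDU set were all called higher in pOE and the 3 from the UUD set were not called, beside 7.18% of all tested genes called higher, so the count repeats how the genes were chosen. CYP 71A1 (LOC_Os12g16720, chromosome 12, 9579773 to 9581772) was at 7.69, 8.14 and 7.81 FPKM in pCPL and 110.0, 104 and 107 FPKM in pOE (ratio 13.6, log2 difference 3.62, adjusted p = 1.33e-11). In Teqing2 and Teqing3 its means were 35.2 ± 1.64 and 17.7 ± 0.933 FPKM. LOC_Os08g39730 was Teqing-stable and went from 3.82 ± 0.254 FPKM in pCPL to 28.6 ± 1.796 FPKM in pOE, with 10.8 ± 0.884 FPKM in Teqing2 and 12.2 ± 0.499 in Teqing3. LOC_Os02g47470 and LOC_Os04g01140 rose from lower levels, both to a log2 difference of 1.54, with Teqing3 over Teqing2 at -1.96 and -0.57.

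The phytosulfokine precursor gene LOC_Os07g03200 (chromosome 7, 1255047 to 1255744) encodes a secreted peptide signal known for promoting the division of cultured plant cells. It was at 12.03, 12.4 and 11.8 FPKM in pCPL and 178, 177 and 171 FPKM in pOE, and at 24.2, 28.6 and 26.2 FPKM in Teqing2 and 31.03, 36.9 and 30.9 FPKM in Teqing3. pOE was above and pCPL below every Teqing library (ratio 14.5, log2 difference 3.77 ± 0.0391, adjusted p = 3.62e-12). An auxin efflux carrier gene (LOC_Os06g12610), whose products move auxin out of cells, rose from 5.64 ± 0.192 FPKM in pCPL to 18.4 ± 0.601 FPKM in pOE, but it was at 15.9 ± 0.619 FPKM in Teqing2 and 3.72 ± 0.398 FPKM in Teqing3.

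Proteases and wall hydrolases came mostly from the DDU set. The aspartic proteinase nepenthesin gene LOC_Os10g39300 (chromosome 10, 20971240 to 20972640) was at 0.653, 0.301 and 0.498 FPKM in pCPL and 15.1, 13.7 and 13.9 FPKM in pOE, and its Teqing means were 2.37 ± 0.530 and 2.55 ± 0.143 FPKM. This is a log2 difference of 3.37 ± 0.113 (adjusted p = 7e-09), the largest rise among the proteases. Of 15 proteases tested, 10 are DDU genes, of which 6 were called higher, and 5 are UUD genes, of which 2 were called lower and 1 higher. Of 8 wall hydrolases, 5 of the 6 DDU genes were called higher and neither of the 2 UUD genes was called. Beside these stand 7.18% higher and 7.49% lower over all tested genes, and the direction follows how the sets were chosen. The glycosyl hydrolases LOC_Os04g56930 and LOC_Os02g33110 had log2 differences of 2.04 and 2.01, and the endoglucanase precursor LOC_Os01g12070 one of 1.68, beside -0.78, -0.45 and -0.93 for Teqing3 over Teqing2. A glycosyl hydrolase of family 16 (LOC_Os08g14200) was at 0.884, 0.437 and 0.0842 FPKM in pCPL and 3.51, 5.69 and 5.104 FPKM in pOE, with wide spread in both, and at 2.21 ± 0.585 FPKM in Teqing2 and 1.93 ± 0.549 in Teqing3.

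OsWRKY23 (LOC_Os01g53260, chromosome 1, 30604326 to 30608077), a transcription factor described as promoting senescence, was at low levels throughout. It was at 1.68, 1.99 and 0.931 FPKM in pCPL and 5.51, 4.68 and 4.89 FPKM in pOE, a log2 difference of 1.28 ± 0.161 (adjusted p = 6.38e-05). Teqing2 was at 5.38, 4.597 and 5.59 FPKM and Teqing3 at 2.75, 2.09 and 2.53 FPKM. The libraries of pOE overlapped with those of Teqing2, and pCPL was lowest. Genes annotated as carrying a C-terminal TPP enzyme domain, listed with pyruvate decarboxylase, the enzyme that starts ethanol fermentation, rose in LOC_Os01g06660 (1.54 ± 0.267 FPKM in pCPL, 12.02 ± 0.6895 in pOE) and LOC_Os05g39320 (11.7 ± 0.826 and 47.4 ± 3.06), while pyruvate decarboxylase isozyme 2 (LOC_Os03g18220) fell from 5.16 ± 0.478 to 0.709 ± 0.229 FPKM. Teqing3 over Teqing2 went against pOE over pCPL in all 3, at -1.20, -1.93 and 1.63. The glutathione peroxidase LOC_Os04g46960, which reduces peroxides with thiols, was higher in pOE, at 65.04 ± 5.23 FPKM against 20.7 ± 2.81 in pCPL, and at 61.1 ± 10.3 FPKM in Teqing2 and 28.4 ± 0.1297 in Teqing3.

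The largest rises belonged to genes without a description. LOC_Os11g31540 (chromosome 11, 18430464 to 18432555) was at 11.1, 9.72 and 12.7 FPKM in pCPL and 423, 428 and 413 FPKM in pOE, with 10.8 ± 1.401 FPKM in Teqing2 and 34.96 ± 1.47 FPKM in Teqing3 (ratio 37.7, log2 difference 5.14, adjusted p = 2.78e-11). LOC_Os05g15920 (chromosome 5, 8981788 to 8982953) was the largest among the Teqing-stable ones, at 9.098, 10.9 and 10.8 FPKM in pCPL, 278, 284 and 284 FPKM in pOE, 24.97, 24.8 and 25.1 FPKM in Teqing2 and 29.5, 26.8 and 28.5 FPKM in Teqing3. Again pOE was above and pCPL below all Teqing libraries (log2 difference 4.67 ± 0.0597, adjusted p = 1.37e-11). LOC_Os07g03620, LOC_Os11g29420 and LOC_Os03g59010 went from pCPL means of 0.276, 0.497 and 0.205 FPKM to pOE means of 33.3, 38.1 and 22.5 FPKM. All 3 were low in both Teqing groups, with no mean above 2.16 FPKM.

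LOC_Os06g23870 (chromosome 6, 13947426 to 13951272) was detected in the pOE libraries only. It was at 18.4, 15.7 and 19.6 FPKM in pOE, from 1787 recovered reads over the 3 libraries, and had no read in any of the 9 pCPL, Teqing2 and Teqing3 libraries. Against a floor of 3 reads over the pCPL group, it was at least 482-fold higher in pOE. Of the other tested genes above 5 FPKM in one line with no read in the other, Os01g0262401 was found in pCPL, at 12.1, 11.2 and 8.16 FPKM, with 280 reads there, 0 in pOE, 1 in Teqing2 and 0 in Teqing3. The glyoxalase family gene LOC_Os07g46360 was the third such gene. Os01g0262401 falls outside the naming rule and was singled out after its values were seen.

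Os08g0246001 (chromosome 8, 8915335 to 8917400) had the largest rise, a log2 difference of 5.59, but its level split the Teqing groups as well. It was at 0, 0.157 and 0 FPKM in pCPL, 49.01, 52.2 and 48.1 FPKM in pOE, 50.96, 53.1 and 47.0 FPKM in Teqing2 and 0 in the 3 Teqing3 libraries. The gene was thus at a like level in pOE and Teqing2 and at or near 0 in pCPL and Teqing3, so each line was opposite to its own control. The difference of the responses for it was 11.28.

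Among the Teqing-stable genes, 567 were called higher in pOE in both comparisons (2.72% of those tested) and 510 were called lower (2.44%). They are 567 of the 718 Teqing-stable genes called higher in the direct comparison and 510 of the 600 called lower. This overlap is in large part fixed by the rule, because the second comparison subtracts only the small Teqing difference from the direct one. Of the 567, pCPL lay within 1.5-fold of both Teqing groups for 332 (58.6%), pOE did so for 43 (7.58%), and neither did for 192 (33.9%). Of the 510, the counts were 205 (40.2%), 82 (16.1%) and 223 (43.7%). The line that stood apart was thus more often pOE in both directions. The means of pOE and pCPL were on opposite sides of all 6 Teqing libraries for 301 of the 567 and 265 of the 510, as for the LEA genes, the PBZ1-like gene and the phytosulfokine precursor. Of those with the largest differences not yet given, LOC_Os04g25650, LOC_Os07g46846, LOC_Os04g01354 and LOC_Os02g36070 were each Teqing-stable by the rule. Their log2 differences were 4.12, 3.74, 3.67 and 3.61. The pCPL means of LOC_Os04g25650 and LOC_Os02g36070, 2.38 and 3.02 FPKM, were below both Teqing means. LOC_Os07g46846 and LOC_Os04g01354 were low in pCPL (0.702 and 0.163 FPKM) and close to their Teqing2 means (0.702 and 0.179 FPKM).

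**Figure D4:**
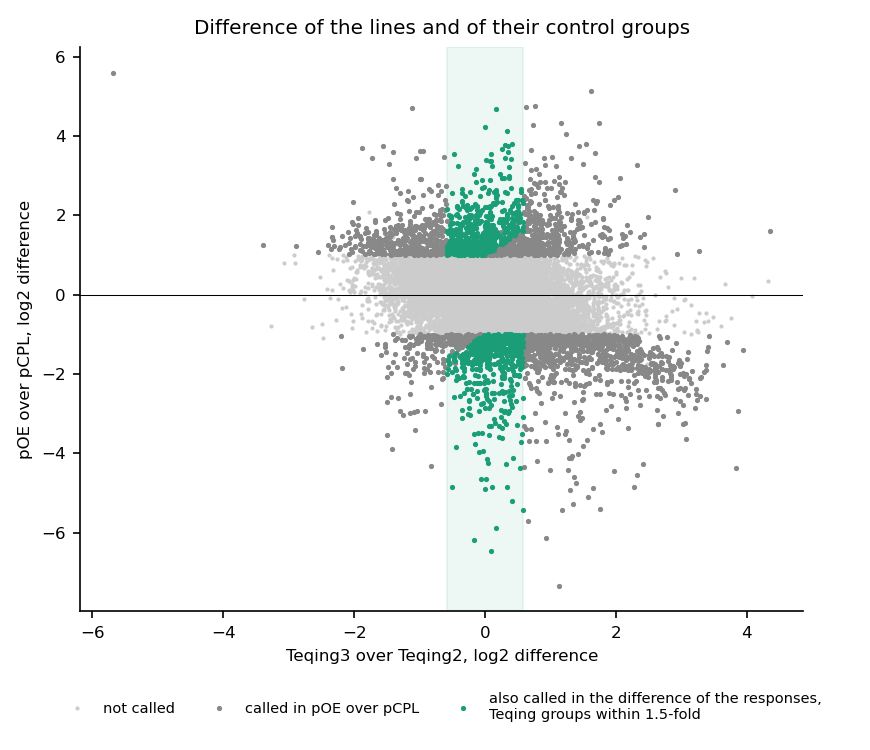
Log2 difference of pOE over pCPL (vertical axis) against that of Teqing3 over Teqing2 (horizontal axis) for every tested gene. Dark grey points are called in the direct comparison, green points are the 567 and 510 Teqing-stable genes called in both, and the shaded band marks Teqing groups within 1.5-fold; the single point at the far left is Os08g0246001.

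Within the UUD and DDU sets, the medians of Teqing3 over Teqing2 and of pOE over pCPL had opposite signs in the lists of this paragraph. They were 1.01 and -0.80 for pentatricopeptide genes and 2.13 and -1.27 for the list with SNF2 and HEAT repeat genes. Pentatricopeptide repeat proteins bind RNA in mitochondria and chloroplasts. Of 28 tested, 7 were called lower and 0 higher, with a median of -0.80, at low levels and with the largest difference in LOC_Os10g33874 (7.38 ± 1.19 FPKM in pCPL, 2.13 ± 0.748 in pOE and 0.7802 ± 0.599 FPKM in Teqing2 and 6.77 ± 1.01 in Teqing3). As 26 of the 28 are UUD genes, their direction follows that choice. Beside the counts of this paragraph stand 7.18% called higher and 7.49% called lower over all tested genes. Of 11 genes of cytosolic ribosomal proteins, 10 of them DDU genes, 7 were called higher and 1 lower, none was Teqing-stable, and the median of Teqing3 over Teqing2 was -1.89 against 1.21 for pOE over pCPL. 60S ribosomal protein L32 (LOC_Os09g32532) was at 40.6 ± 0.7699 FPKM in pCPL, 109.6 ± 5.06 in pOE, 158 ± 15.8 in Teqing2 and 36.9 ± 2.88 in Teqing3. Of 13 genes with annotation words such as SNF2, HEAT repeat, BEACH, importin or FAT domain, 12 of them UUD genes, 8 were called lower and 1 higher, and none was Teqing-stable. The DUF1399 protein gene LOC_Os11g40590, listed among them, was at 36.8 ± 0.243 FPKM in pCPL, 0.805 ± 0.225 in pOE, 1.397 ± 0.3395 in Teqing2 and 32.9 ± 0.738 in Teqing3.

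Chaperones went both ways. A dnaJ chaperone gene (LOC_Os03g57340) fell from 158 ± 4.54 FPKM in pCPL to 44.2 ± 1.37 in pOE. It was at 20.8 ± 0.861 FPKM in Teqing2 and 171 ± 7.08 in Teqing3, so the untransformed controls differed more than the lines. The T-complex genes, subunits of the cytosolic chaperonin, rose, LOC_Os02g01280 from 5.47 ± 0.606 to 21.4 ± 0.921 FPKM, with 11.5 ± 0.709 FPKM in Teqing2 and 7.97 ± 1.097 in Teqing3. Of 18 transporters, 7 of 8 UUD genes were called lower and 5 of 10 DDU genes higher, which follows how the sets were chosen. The largest falls were in a transporter family gene (LOC_Os07g05640, 18.2 ± 0.731 FPKM in pCPL and 1.51 ± 0.0981 in pOE) and a potassium transporter (LOC_Os07g48130, 10.2 ± 0.0387 and 1.39 ± 0.266 FPKM), beside 1.84 and 0.96 for Teqing3 over Teqing2. Of 6 NBS-LRR resistance genes, all from the UUD set, 1 was called lower. Beside the transporter and resistance gene counts stand 7.18% called higher and 7.49% called lower over all tested genes. The BAX inhibitor motif gene LOC_Os07g08060, of a family known for restraining cell death, was at 0.5296, 1.18 and 0.694 FPKM in pCPL and 3.03, 5.96 and 3.12 in pOE, with 7.38 ± 0.487 FPKM in Teqing2 and 1.24 ± 0.4496 in Teqing3, and its call (log2 difference 1.46, adjusted p = 0.00023) was lost without pCPL replicate 1 or 3 and with no filter on low values. Of the 54 lists, 21 had no gene in these descriptions, among them superoxide dismutase, catalase, ascorbate peroxidase, histones, green leaf and seed storage markers, and callus markers. The labelled tissue was not checked against markers here, because these descriptions cover only the UUD and DDU genes.

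Called genes lay side by side in places. Taking tested genes in chromosome order, 23 runs of at least 4 neighbours were all called in 1 direction, 20 of them higher in pOE and 3 lower, with 107 genes in all. The runs were looked for after the data were seen and were not tested, and 3 of them hold overlapping gene models. The longest lay on chromosome 2, from 21662608 to 21918679, with 11 genes, all higher in pOE at a median log2 difference of 2.89. Its most abundant gene, LOC_Os02g36110, was at 18.5 ± 1.44 FPKM in pCPL and 210.1 ± 9.89 in pOE, and LOC_Os02g36030 and LOC_Os02g36070 belong to it as well. LOC_Os02g36190, in the same run, went from 0.0761 ± 0.0504 to 6.98 ± 0.521 FPKM. Their Teqing2 and Teqing3 means were 12.9 and 33.6 FPKM for the first and 0.259 and 0.226 FPKM for the other. The median of Teqing3 over Teqing2 over its genes was 1.16, the same direction as pOE over pCPL.

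On chromosome 10, a run of 6 genes from 16426027 to 16495128 and another of 4 genes from 16518769 to 16600321 followed each other, with medians of 2.27 and 3.34, beside 0.99 and 0.36 for Teqing3 over Teqing2. LOC_Os10g31420 in the first was at 251 ± 10.5 FPKM in pCPL and 2222 ± 57.5 in pOE, with 246 and 424 FPKM in Teqing2 and Teqing3. LOC_Os10g31660 and LOC_Os10g31670, the last of the second run, were at 6.36, 6.22 and 5.56 and 1.46, 1.302 and 1.11 FPKM in pCPL and at 140.3, 132 and 143 and 61.4, 57.04 and 55.2 FPKM in pOE, with Teqing3 over Teqing2 at 1.74 and -1.11. Runs of 6 and 4 genes from 28722579 to 28740634 and from 28753859 to 28761600 on chromosome 11 held LOC_Os11g47550 (152 ± 1.63 FPKM in pCPL, 789 ± 29.96 in pOE) and LOC_Os11g47580 (266 ± 3.02 and 834 ± 16.3 FPKM), with 171 and 237 and 232 and 250.4 FPKM in Teqing2 and Teqing3. On chromosome 7 (28002587 to 28021694), 4 genes rose from means of at most 2.46 FPKM in pCPL to at least 18.7 FPKM in pOE. Over these 4 the median of Teqing3 over Teqing2 was 0.55, the same direction as pOE over pCPL, and 2 were Teqing-stable. The run on chromosome 4 from 5318070 to 5434023 held 5 genes, of which 1 was Teqing-stable. Its median of Teqing3 over Teqing2 was 1.05, the same direction as pOE over pCPL. Among its genes was LOC_Os04g10000, annotated as a tasselseed-2 protein, a short-chain dehydrogenase of sex determination in maize. It was at 9.02 ± 0.517 FPKM in pCPL and 109 ± 6.65 in pOE, with 20.6 and 12.96 FPKM in Teqing2 and Teqing3.

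The 3 runs on the lower side, on chromosomes 3, 5 and 6, had medians of -2.24, -1.29 and -1.10. That on chromosome 3 (26070770 to 26096992) held Os03g0663750, an abundant gene at 1055 ± 19.6 FPKM in pCPL and 134 ± 2.18 FPKM in pOE, whose Teqing means were 1014 FPKM in Teqing2 and 475 FPKM in Teqing3. By chromosome, the share called higher ranged from 5.74% on chromosome 5 to 10.05% on chromosome 10, and the share called lower from 5.92% on chromosome 11 to 8.44% on chromosome 9. Of 15 mitochondrial entries tested, 1 was called higher and 0 lower, beside 7.18% higher and 7.49% lower over all tested genes.

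Gene length moved with the result. The tested genes were put in 10 bins of about equal size by length. In the shortest bin (61 to 667 bases) the median log2 difference was 0.23, and in the longest bin (3086 to 9536 bases) it was -0.19. Of the shortest bin 15.2% were called higher in pOE, and of the longest 1.77%, while the share called lower stayed between 6.19% and 10.5%. Teqing3 over Teqing2 had the opposite trend, from -0.12 in the shortest to 0.21 in the longest bin. The median length of the genes called higher was 1124 bases, against 1455.5 bases for those called lower and 1535 bases for all tested genes. With each library's trend on length removed, 1415 genes were called higher, 1321 of them the same genes, and 1577 lower, 1446 the same.

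**Figure D5:**
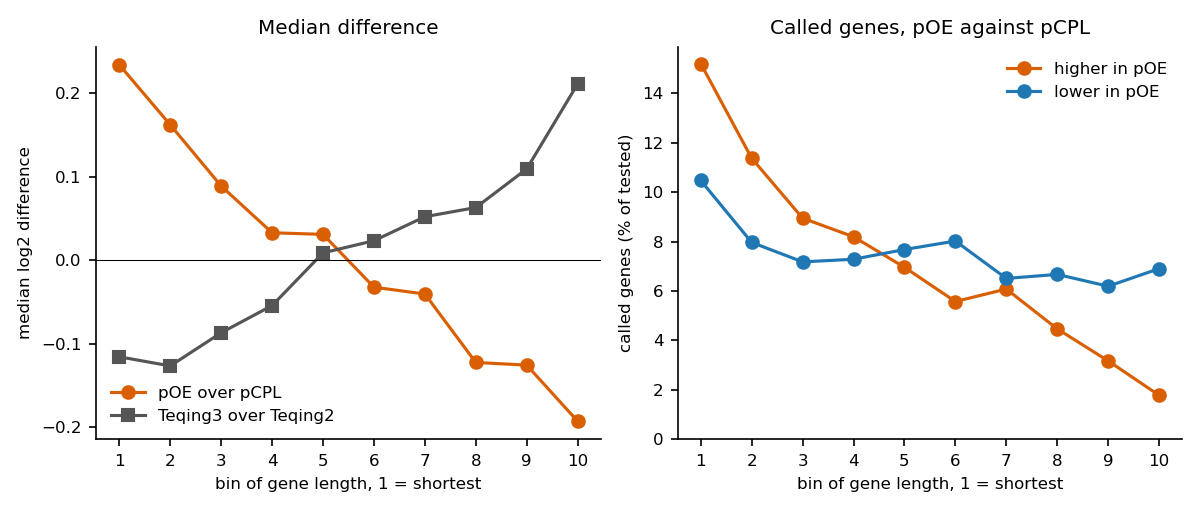
Left, median log2 difference of pOE over pCPL and of Teqing3 over Teqing2 in 10 bins of gene length. Right, percentage of tested genes called higher or lower in pOE in the same bins; the share called higher falls from 15.2% to 1.77%.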

How the data were processed

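RNA of rice callus was sequenced in 3 libraries each of pCPL, its control Teqing2, pOE and its control Teqing3. Per the labels and methods, the authors mapped paired reads to IRGSP-1.0 with TopHat2 and deposited FPKM for each gene and library, in 1 table for each line and its own Teqing. The submitters' processing notes also name Cufflinks, CASAVA 1.8 and bcl2fastq, with no role. Reads per gene were recovered here from FPKM and gene length, and 100% of the low values (under 30 reads) came out whole within 0.01. The deposited columns of the authors' own fold changes and p-values were not used. Entries without an annotated identifier were left out.

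The members and gene lists were chosen with earlier results of these data known. Members passing 1 FPKM on average in at least 1 line were tested with limma 3.58.1 (R 4.3.3, lmFit and eBayes with a trend) on log2(FPKM + 1) after scaling the 6 libraries by the median of ratios, and called from a log2 difference of 1 upwards at p under 0.001 after Benjamini-Hochberg adjustment. Log2 differences on this scale understate the change of low genes. Printed levels are FPKM as deposited. A second fit over 12 libraries tested pOE over Teqing3 minus pCPL over Teqing2. Named genes are those the study discusses, then, among called genes whose libraries do not overlap and whose higher mean is at least 5 FPKM, the 10 largest differences each way and the 8 largest each way that are Teqing-stable and called in both fits, and up to 4 called genes of each list. Alternatives covered the scale, pseudocount, filter, threshold, voom weights, a length correction, a replicate block and leaving out each library. The steps were tested on simulated data. Python 3.11.15 with pandas 2.3.3 and numpy 2.4.6 was used for the tables. Depth limits low genes most.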

Additional observations from a re-analysis of the deposited data

Results flagged for a closer look

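The responses of the lines to their own Teqing differed by the test of the difference itself (limma, 12 libraries), for 3046 genes with the pOE response higher and 3710 with it lower, at a log2 difference of 1 and an adjusted p under 0.001. Among the genes the study discusses, the difference of the responses was 2.32 on the log2 scale for BOC1, 3.37 for actin, 2.99 for the PBZ1-like gene, 2.11 for OsWRKY23 and -5.18 for OsSAG12-1. Each of these values contains the difference between Teqing3 and Teqing2, which was within 1.5-fold for BOC1 and the PBZ1-like gene and wider for the other 3.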

How the results depend on the processing

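At an adjusted p under 0.05 with no fold threshold, 7426 genes were higher and 7637 lower in pOE, and the difference of the responses gave 7719 and 8176. Subtracting the difference of the Teqing groups gave 3046 higher and 3710 lower. With Teqing groups held within 0.32 on the log2 scale in place of 0.58, 352 and 312 genes were called in both comparisons. Leaving out each library in turn gave 1467 to 1496 genes higher and 1504 to 1560 lower, and 2995 to 3053 and 3646 to 3684 for the difference of the responses. With the replicate number as a block, 1491 and 1550 genes were called, and 3027 and 3692 for the difference; same-numbered libraries did not deviate together (correlations of 0.0035, 0.024 and -0.0008), so the numbers do not pair the libraries. The other scales, filters, pseudocounts and weights kept both direct counts within 1.5 times, from 1161 (mean above 5 FPKM) to 2209 (voom) higher. Scaling by total reads over genes, chosen after the data were seen, gave 1777 higher and 1373 lower, 56.4% higher against 48.9%, and moved the median of all genes to 0.078. No direction was reversed among the named genes. Of all genes called higher in the direct comparison, 4 were called in the opposite direction in the difference of the responses. Of the 113 named genes, 108 stayed on the same side of the threshold in every alternative, and LOC_Os07g08060, LOC_Os11g31330, LOC_Os03g64260, LOC_Os04g41830 and LOC_Os06g12882 did not; the cause was not tested. Low genes are limited by depth.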
